A study of Mus musculus with 7 samples.

Results

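The genes described here are 35 liver-secreted proteins of blood coagulation and complement, measured in posterior second heart field (pSHF) tissue of *Shh*-/- and wild-type mouse embryos. They were taken by gene name from 21475 gene names on the array, as 3 fibrinogen chains, 10 clotting factors, 9 inhibitors and regulators and 13 complement proteins, and the probe of each was selected on its brightness, the mean signal over all 7 arrays. The array held 48 probes for the 35 genes. A probe was tested if 1 genotype at least had it well above background on each of its arrays, which held for 28 of the 35 and for 14894 genes in all. The list was drawn up with results of this comparison known, so the p-values below place each gene within the whole array and are no independent support for the list.

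RNA came from pools of pSHF dissected at embryonic day 9.5, 4 from *Shh*-/- embryos and 3 from *Shh*+/+ embryos, each on 1 single-colour array. All embryos, of both genotypes, came from *Shh*+/- females and males on a background given as C56B/6 and CD-1 mixed, and the females had been superovulated with 5 units each of PMS-G and HCG, 48 hours apart. Several embryos of 1 genotype were combined per pool in a number not given in the sources used here. By the study's account, the dissection kept the attached foregut and left out heart and neural tube. The null allele acts in the whole embryo, so a difference in a pool is not limited to the second heart field. Slides 1, 3 and 4 each carried the mutant and the wild-type pool of that number, with the mutant in position 1 and the wild type in position 2, and position cannot be told apart from genotype. Slide 2 carried mutant pool 2 by itself, and a possible leak during its hybridization is noted in the labels.

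Fibrinogen, the clotting factors and most complement proteins are made by hepatocytes and their embryonic precursors, the hepatoblasts, which bud from the ventral foregut beside the heart field. In the clotting cascade, serine proteases activate each other in turn until thrombin converts fibrinogen to fibrin, while antithrombin, protein C and the plasmin system hold the clot in check. In the complement cascade, lectin, classical or alternative triggers converge on the cleavage of C3 and end in the membrane attack complex.

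Signals are normalized log2 values, and differences are mutant minus wild type on that scale, so that 1 is a doubling well above background. Near background the normalized scale departs from plain log2, so the folds of dim genes are approximate. A gene was called when its adjusted p in limma, with Benjamini-Hochberg adjustment over 23127 probes, was under 0.05. Of the 28 tested members 8 were called, and 8 were higher and 0 lower in the mutants. Over all tested genes 0.786% were called, 0.389% as higher and 0.396% as lower. The 8 were all 3 fibrinogen chains, *F10*, *Serpinc1*, *Cpb2*, *C3* and *Cfi*. None of the 8 calls held without wild-type pool 1, 3 or 4, without mutant pool 3 or with slide as a fixed block, which drops mutant pool 2 (adjusted p from 0.0540 to 0.121 over these genes with the block). Without mutant pool 2, 2 members were called (*Cpb2* and *Cfi*), and without mutant pool 4, 4. The log2 differences of these 8 genes stayed between 0.74 and 1.53 with the block and between 0.74 and 1.63 when 1 array was left out.

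Counting called and uncalled members together, 21 of 28 had an unadjusted p under 0.05, against 9.10% of tested genes. In 20 of the 28 every mutant array was above every wild-type array, which 5.99% of tested genes showed, and in 0 was every mutant array below. At least 2-fold higher were 9 members, against 0.463% of tested genes. The median log2 difference of the tested members was 0.84, against 0.03 over tested genes, of which 59.5% were above 0. Of the 20 members that were not called, 16 were above 0, 13 had an unadjusted p under 0.05, 12 had every mutant array above every wild-type array and 4 were at least 2-fold higher, and their median was 0.74.

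**Figure D1:**
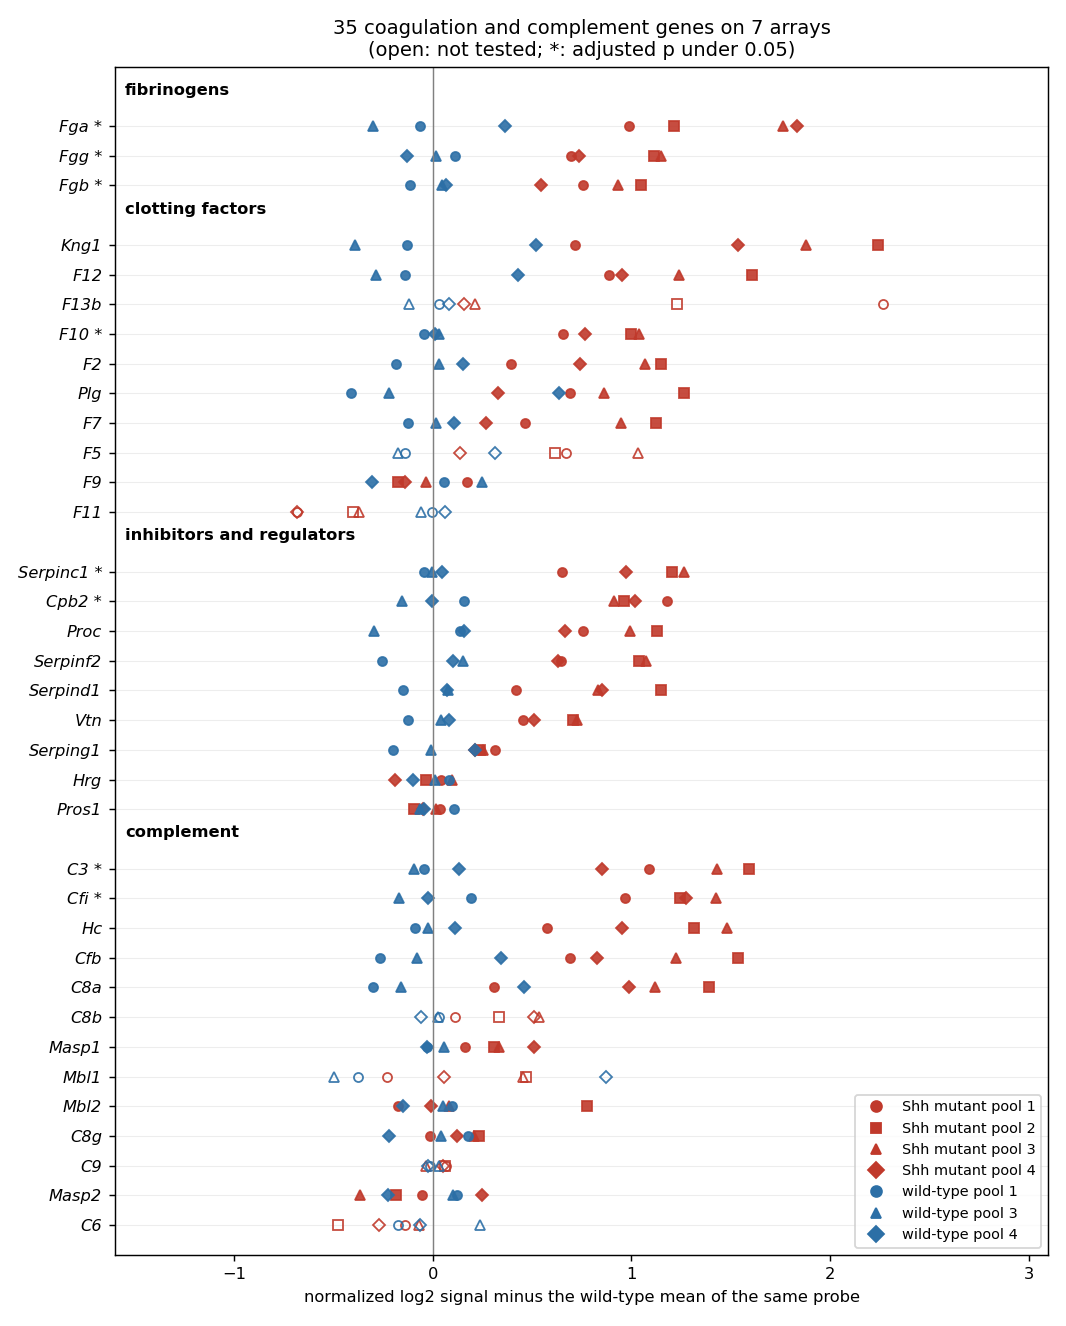
Normalized log2 signal of each of the 35 genes on each array, as the distance from the wild-type mean of the same probe, by role. Red symbols are the 4 mutant arrays and blue symbols the 3 wild-type arrays, the shape gives the pool number, open symbols are genes that were not tested, and stars mark the 8 called genes. The red symbols lie right of the blue ones in all 3 fibrinogen chains, while *F9*, *Pros1*, *Hrg* and *Masp2* have both colours mixed around 0.

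The 3 fibrinogen chains lie next to each other on chromosome 3 in the order *Fgg*, *Fga*, *Fgb*, by the RefSeq annotation of GRCm38.p6. Their array probes lie at chr3:82818825-82818884, chr3:82835678-82835737 and chr3:82846334-82846393 in the order *Fgg*, *Fga*, *Fgb* (mm9, from the array design). Whether the probes fall in coding exons or untranslated sequence is not given in the sources used here. The 250 bases before the start of each chain are shown, because these were the members of 1 role that were all called, with those of *C3*, the called gene with the largest difference outside the fibrinogens. They come from RefSeq (GRCm38.p6), run 5′ to 3′ on the gene's own strand and end at the base before the start. The intervals are chr3:83025903-83026152 on the plus strand for *Fga*, chr3:83049864-83050113 on the minus strand for *Fgb*, chr3:83007474-83007723 on the plus strand for *Fgg* and chr17:57228137-57228386 on the minus strand for *C3*. Capitals mark matches to the half-site of HNF1 (GTTAAT) and to a C/EBP sequence (TTGCNNAA), both searched on both strands, and no marked match overlaps another. HNF1 and C/EBP are transcription factors known for their role in hepatocytes.
Fga: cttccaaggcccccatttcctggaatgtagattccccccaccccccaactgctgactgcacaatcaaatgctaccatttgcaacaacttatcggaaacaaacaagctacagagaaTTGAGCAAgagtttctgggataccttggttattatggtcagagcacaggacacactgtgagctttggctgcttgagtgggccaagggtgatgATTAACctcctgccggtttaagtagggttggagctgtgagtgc
Fgb: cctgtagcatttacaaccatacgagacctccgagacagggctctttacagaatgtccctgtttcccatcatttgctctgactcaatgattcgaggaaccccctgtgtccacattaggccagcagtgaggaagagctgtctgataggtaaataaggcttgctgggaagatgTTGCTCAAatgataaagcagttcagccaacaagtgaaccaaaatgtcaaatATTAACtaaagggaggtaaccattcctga
Fgg: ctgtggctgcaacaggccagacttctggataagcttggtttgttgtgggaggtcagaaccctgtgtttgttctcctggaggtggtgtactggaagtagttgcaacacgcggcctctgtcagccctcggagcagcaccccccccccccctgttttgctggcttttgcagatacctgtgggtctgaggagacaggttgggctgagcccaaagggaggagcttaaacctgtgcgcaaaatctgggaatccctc
C3: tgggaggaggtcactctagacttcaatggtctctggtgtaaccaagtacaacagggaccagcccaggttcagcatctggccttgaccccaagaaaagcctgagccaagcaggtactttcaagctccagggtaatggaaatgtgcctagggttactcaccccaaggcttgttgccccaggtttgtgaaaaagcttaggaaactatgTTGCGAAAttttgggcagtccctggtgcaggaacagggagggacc

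In *Fga* the half-site match covers bases 43 to 38 before the start and the C/EBP match bases 135 to 128. In *Fgb* they cover bases 29 to 24 and 80 to 73, and in *C3* the C/EBP match covers bases 45 to 38. *Fgg* holds neither in this window. Of the 35 members 28 had an entry among the 32851 promoters. *Cfb*, *Cfi*, *Proc*, *Kng1*, *Serping1*, *Masp1* and *Plg* had none. A member counts as matched if any of its promoters matched, while the shares are over single promoters, so the units differ. The HNF1 half-site was in 7 of these 28 (*C8a*, *C8b*, *F13b*, *Fga*, *Fgb*, *Hc*, *Vtn*) and in 6.43% of all promoters. The C/EBP sequence was in 7 (*C3*, *C9*, *F11*, *F9*, *Fga*, *Fgb*, *Hrg*) and in 9.56% of all promoters. A FOXA sequence (TGTTTNC) was in 8 of 28 against 17.8%, and an HNF4 sequence (CAAAGTCCA) in 0 of 28 against 0.384%. Matches were found in called and uncalled members, and in *F9* and *Hrg*, whose differences were near 0.

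All 3 fibrinogen chains were higher in the mutants, with a median log2 difference of 0.92. *Fga*, the alpha chain, read 6.88, 7.11, 7.66 and 7.73 in mutant pools 1 to 4 and 5.83, 5.59 and 6.26 in wild-type pools 1, 3 and 4. The difference was 1.45 (SE 0.24, 2.73-fold, limma adjusted p = 0.0439). The lowest mutant pool of *Fga* stood above the highest wild-type pool.

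*Fgb*, the beta chain, read 14.54, 14.83, 14.71 and 14.33 in the mutants and 13.66, 13.83 and 13.85 in the wild types, a difference of 0.82 (SE 0.14, 1.77-fold, limma adjusted p = 0.0494). *Fgg*, the gamma chain, read 13.48, 13.89, 13.93 and 13.51 against 12.89, 12.80 and 12.65, a difference of 0.92 (SE 0.15, 1.90-fold, limma adjusted p = 0.0434). Neither chain overlapped between genotypes, and in both mutant pools 2 and 3 were the highest. In *Fga* pools 3 and 4 were the highest instead. Within slides 1, 3 and 4 the mutant exceeded the wild type by 1.05, 2.06 and 1.47 in *Fga*, by 0.87, 0.88 and 0.48 in *Fgb* and by 0.58, 1.13 and 0.87 in *Fgg*. As these are bulk samples, more cells of a type and more RNA per cell cannot be told apart, here and for the genes that follow.

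**Figure D2:**
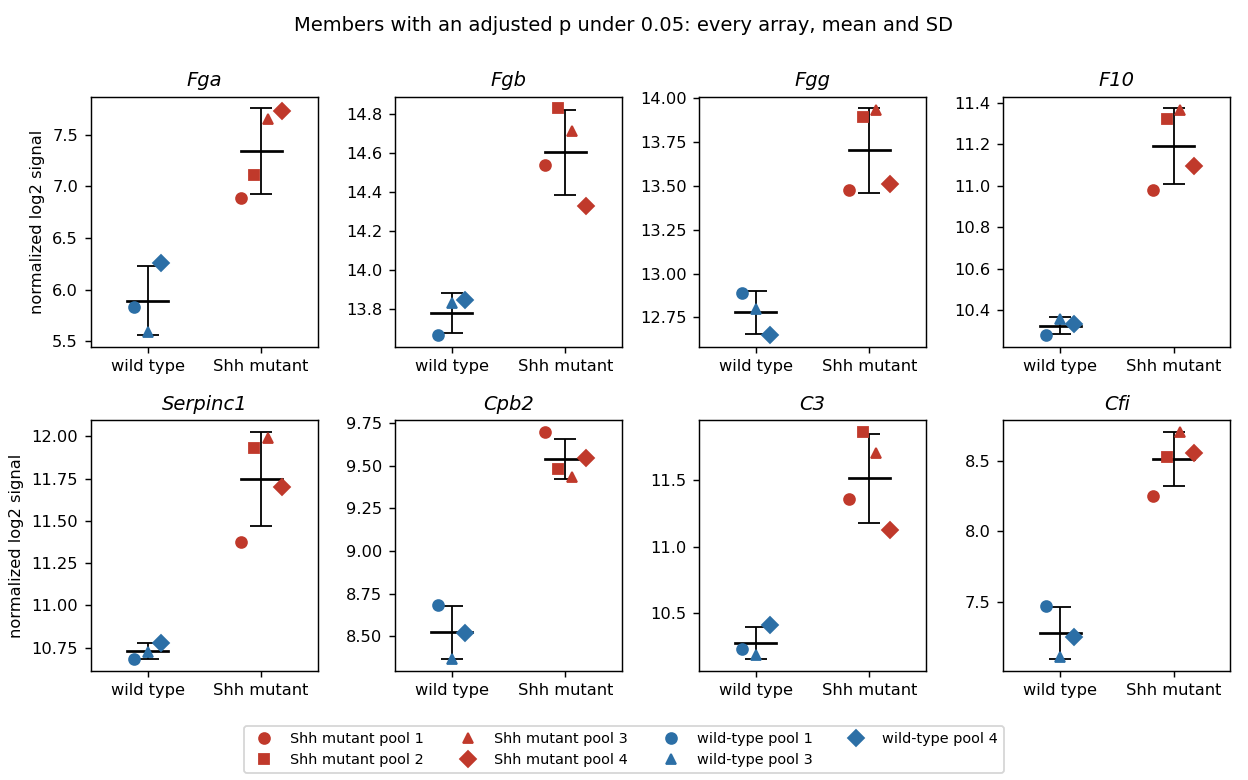
The 8 called genes, with the normalized log2 signal of every array (symbols by pool number), the mean (horizontal line) and the SD (bar) of 3 wild-type and 4 mutant pools. In each of the 8 genes the lowest mutant symbol lies above the highest wild-type symbol. The vertical axes differ between genes and do not start at 0.

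Of the 10 clotting factors 7 were tested and 1 was called, with a median log2 difference of 0.84 over those tested. The called gene was *F10*, the factor that cleaves prothrombin to thrombin. It read 10.98, 11.32, 11.37 and 11.09 in the mutants and 10.28, 10.36 and 10.34 in the wild types, a difference of 0.86 (SE 0.13, 1.82-fold, limma adjusted p = 0.0319). The SD of *F10* was 0.04 among the wild-type pools and 0.18 among the mutant pools, and the genotypes did not overlap.

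*Kng1*, the kininogen of the contact system and source of bradykinin, had the highest difference of any member. It read 5.95, 7.48, 7.11 and 6.77 against 5.10, 4.84 and 5.76, a difference of 1.59 (SE 0.35, 3.02-fold, limma adjusted p = 0.110). Its groups did not overlap, but the SD was 0.65 among the mutants and 0.47 among the wild types, and the difference was 0.85 on slide 1 and 2.27 on slide 3. A second *Kng1* probe was well above background on 2 mutant and 2 wild-type arrays and was not tested. *F12*, the protease that starts the contact pathway, read 8.31, 9.03, 8.66 and 8.37 against 7.28, 7.13 and 7.85, a difference of 1.17 (SE 0.22, 2.25-fold, limma adjusted p = 0.0669).

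Prothrombin, *F2*, differed by 0.84 (SE 0.19, adjusted p = 0.121) and *F7*, the tissue factor partner that starts the extrinsic pathway, by 0.70 (SE 0.21, adjusted p = 0.273), neither with overlap between genotypes. *F7* and *F10* are neighbours on chromosome 8. Plasminogen, *Plg*, overlapped: wild-type pool 4 read 9.22, above mutant pool 4 at 8.91, and the difference was 0.79 (SE 0.28, adjusted p = 0.427). A second *Plg* probe gave 0.87 (SE 0.21, adjusted p = 0.144). *F9*, the factor lacking in haemophilia B, stood apart from these, with a difference of -0.04 (SE 0.16, adjusted p = 1.00) and pools of both genotypes between 6.25 and 6.81. Its sign changed with the processing.

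The other clotting factors were too dim to be tested. *F5*, the cofactor of factor X, was well above background on 1 mutant and 1 wild-type array and overlapped between genotypes. *F13b*, the carrier subunit of the fibrin cross-linking enzyme, was well above background on 1 mutant and 0 wild-type arrays. It read 5.56, 4.53, 3.51 and 3.45 against 3.33, 3.18 and 3.38, so that mutant pools 1 and 2 stood out and the others were close to the wild types. *F11*, an intrinsic pathway protease, was the 1 member of 35 with every mutant array below every wild-type array. It read 4.07, 4.35, 4.38 and 4.07 against 4.75, 4.69 and 4.81, well above background on 1 of 4 mutant and 2 of 3 wild-type arrays. Of tested genes, to which *F11* does not belong, 3.80% had every mutant array below. Among the other members that were not tested, *F13b* and the complement gene *C8b*, both dim, had every mutant array above every wild-type array.

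All 9 inhibitors and regulators were tested and 2 were called, with a median log2 difference of 0.81. *Serpinc1* encodes antithrombin, the main inhibitor of thrombin and factor Xa. It read 11.38, 11.93, 11.99 and 11.70 in the mutants and 10.68, 10.73 and 10.78 in the wild types, a difference of 1.02 (SE 0.16, 2.03-fold, limma adjusted p = 0.0356). Its second probe gave 0.54 (SE 0.18, adjusted p = 0.381), the same direction without a call.

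*Cpb2* encodes the carboxypeptidase that trims fibrin and slows its breakdown by plasmin. It read 9.70, 9.48, 9.43 and 9.54 against 8.68, 8.37 and 8.52, a difference of 1.02 (SE 0.12, 2.02-fold, limma adjusted p = 0.0161). Its second tested probe was called too, at 0.95 (SE 0.14, adjusted p = 0.0319), and is the only further member probe that was called, which made 9 of 36 tested member probes. The 3 slides gave differences of 1.02, 1.07 and 1.02 by the first probe and of 0.65, 1.32 and 0.91 by the second. The probes also order the mutant pools differently, since pool 1 was the highest mutant by the first, and by the second, at 8.36, the lowest.

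Protein C, *Proc*, which as an activated protease switches off factors V and VIII, read 9.21, 9.58, 9.45 and 9.12 against 8.59, 8.16 and 8.61, a difference of 0.89 (SE 0.16, 1.85-fold, limma adjusted p = 0.0606). The serpins *Serpinf2* (antiplasmin) and *Serpind1* (heparin cofactor II) differed by 0.85 (SE 0.16, adjusted p = 0.0737) and 0.81 (SE 0.17, adjusted p = 0.0951). Vitronectin, *Vtn*, an adhesive plasma protein that also restrains the membrane attack complex, differed by 0.60 (SE 0.12, adjusted p = 0.0798). None of these 4 overlapped between genotypes, and none passed the test.

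The remaining inhibitors were close between genotypes. *Serping1*, the C1 inhibitor and also a serpin, differed by 0.25 (SE 0.12, adjusted p = 0.720), with mutant pool 4 and wild-type pool 4 both at 9.68. Mutant pool 4 exceeded wild-type pool 4 by only 8.3e-05. By that margin *Serping1* is counted among the members without overlap and among those higher on all 3 shared slides. Protein S, *Pros1*, the cofactor of protein C, read 10.01 to 10.15 in the mutants and 10.04 to 10.21 in the wild types, and its difference of -0.02 (SE 0.10) changed sign with the processing. *Hrg*, the histidine-rich glycoprotein, differed by -0.02 (SE 0.11) near background, and its sign changed as well. Protein C and protein S act together in plasma, and here *Proc* was at 0.89 and *Pros1* at -0.02.

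Of the 13 complement genes 9 were tested and 2 were called, with a median log2 difference of 0.95 over those tested. *C3*, the component on which all pathways converge, was measured by 10 spots of 1 probe at chr17:57343416-57343475 (mm9). It read 11.36, 11.87, 11.71 and 11.13 in the mutants and 10.23, 10.18 and 10.41 in the wild types, a difference of 1.24 (SE 0.18, 2.36-fold, limma adjusted p = 0.0319). A second *C3* probe was well above background on 0 mutant and 0 wild-type arrays, overlapped between genotypes and was not tested.

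*Cfi*, the protease that inactivates C3b, had the lowest adjusted p of the members. It read 8.25, 8.53, 8.70 and 8.56 against 7.47, 7.11 and 7.25, a difference of 1.23 (SE 0.14, 2.34-fold, limma adjusted p = 0.0155). *Hc*, which encodes C5, read 7.91, 8.65, 8.81 and 8.28 against 7.24, 7.31 and 7.44, a difference of 1.08 (SE 0.21, 2.12-fold, limma adjusted p = 0.0678). In *C3* and *Hc* mutant pools 2 and 3 were the highest, in *Cfi* pools 3 and 4, and the genotypes overlapped in none of these 3 genes.

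Factor B, *Cfb*, the protease of the alternative pathway convertase, differed by 1.07 (SE 0.23, adjusted p = 0.0976) without overlap. Of the chains of C8, *C8a* differed by 0.95 (SE 0.27, adjusted p = 0.241) and overlapped, *C8g* by 0.14 (SE 0.13, adjusted p = 1.00), and *C8b*, the neighbour of *C8a* on chromosome 4, was well above background on 0 of 7 arrays. The other membrane attack genes were dim, with *C9* above background on 0 arrays and *C6* on 1 mutant and 2 wild-type arrays.

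The lectin pathway members were the complement genes with the smallest differences among those tested, beside *C8g*. *Masp1*, a lectin pathway protease, differed by 0.33 (SE 0.12, adjusted p = 0.404), with mutant pools from 11.94 to 12.28 above wild-type pools from 11.75 to 11.83. Further tested *Masp1* probes gave 0.39 and 0.03. An untested *Masp1* probe, well above background on 0 mutant and 1 wild-type arrays, was at -0.37. *Masp2*, the protease that cleaves C4 and C2, differed by -0.09 (SE 0.17), with 2 further probes at -0.14 and -0.30. The mannose-binding lectin *Mbl2* differed by 0.17 (SE 0.21), and *Mbl1* was well above background on 1 mutant and 1 wild-type array. The sign of *Masp2* changed without mutant pool 3, and that of *Mbl2* without mutant pool 2, on the deposited values and with the fixed slide block.

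Over the 28 tested members the differences by the brightest probe fell in 2 stretches with a gap between them, which was noticed after the values were seen. Between 0.60 and 1.59 lay 20 members, and between -0.09 and 0.33 lay the other 8, *Masp1*, *Serping1*, *Mbl2*, *C8g*, *Pros1*, *Hrg*, *F9* and *Masp2*. The SE of the 20 was 0.12 to 0.35, so several of the 20 cannot be ordered among themselves. The gap was not a fixed one, since other tested probes lay inside it, at 0.54 for *Serpinc1* and 0.39 for *Masp1*. With 1 array left out, *Vtn* fell to 0.54 and *Serping1* rose to 0.36. The 8 called genes all lay in the upper stretch, which is no separate result, as a call needs a difference that is large against its SE.

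The mutant pools differed among themselves, in an order that varied between members. The mean over the 28 tested members, relative to the wild-type mean of each probe, was 0.52, 0.93, 0.86 and 0.64 in mutant pools 1 to 4 and -0.05, -0.05 and 0.10 in wild-type pools 1, 3 and 4. Mutant pool 2 was the highest mutant in 13 of 28 members, pool 3 in 8, pool 1 in 4 and pool 4 in 3. Mutant pool 1 was the lowest in 16. Within slides, 21 of the 28 members were higher in the mutant on all 3 shared slides, against 18.4% of tested genes. Slide 3 gave the largest of the 3 differences in 20 of 28, with a median of 1.02, against 0.61 on slide 1 and 0.53 on slide 4. For the order of the mutant pools and of the slides, the shares over all tested genes were not taken.

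**Figure D3:**
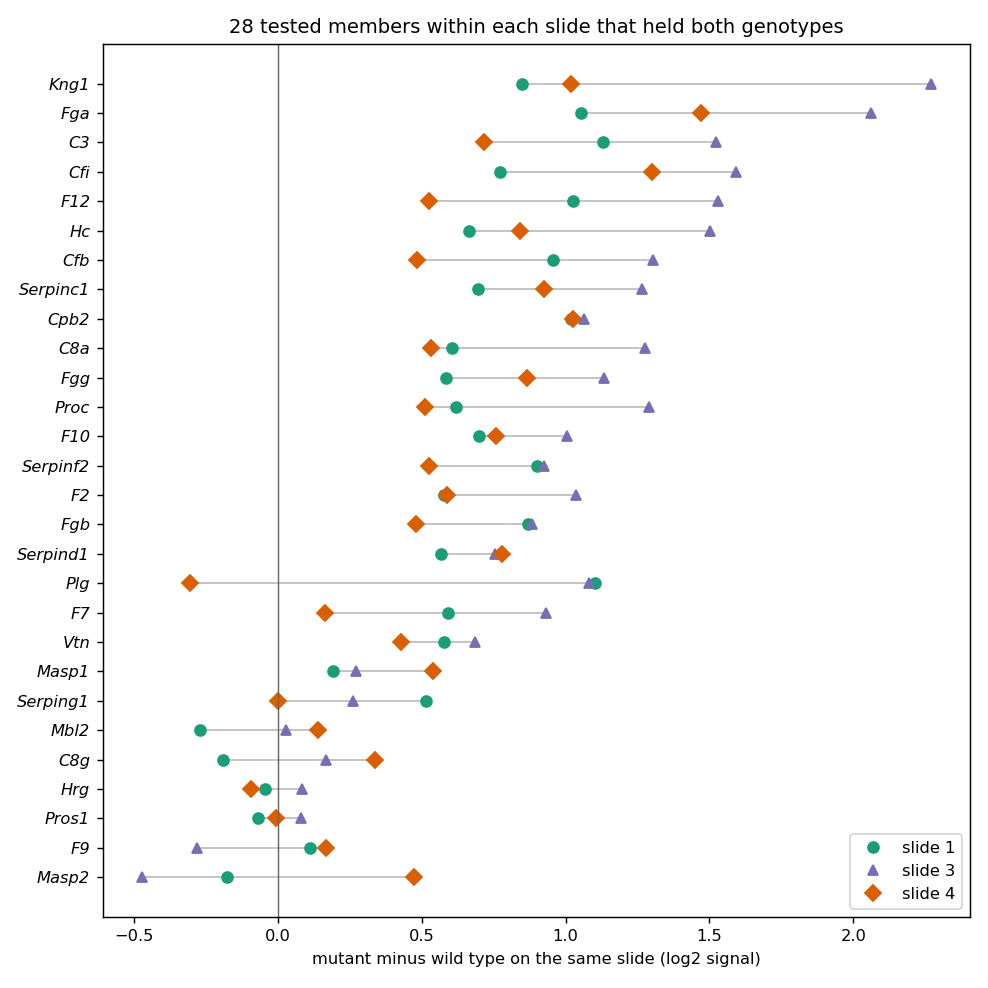
Difference in log2 signal between the mutant and the wild-type pool of the same slide, for the 28 tested members in order of their difference over all arrays. Green circles are slide 1, purple triangles slide 3 and orange diamonds slide 4, and grey lines join the lowest and the highest. Slide 3 lies farthest right in 20 of 28 genes, and *Plg* is below 0 on slide 4. Each gene is shown by its brightest probe, and the second called probe of *Cpb2* spread more, from 0.65 to 1.32.

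Genes of the same cascades that were not among the 35 were read for comparison from a written list. The list was not split by the tissue that makes each protein. As the 35 were chosen with results known, the medians below are no independent contrast with the members. Of 22 tested coagulation and fibrinolysis genes 0 were called, with 5 at an unadjusted p under 0.05 and a median of 0.13. Of these, *Proz*, a vitamin K-dependent cofactor, differed by 0.97 (SE 0.23, adjusted p = 0.135) and *Plaur*, the urokinase receptor, by -0.77 (SE 0.15, adjusted p = 0.0707). Of 17 tested complement genes 0 were called, with 5 at an unadjusted p under 0.05 and a median of 0.08. Here *C2*, the protease of the classical and lectin convertase, differed by 0.96 (SE 0.23, adjusted p = 0.150) and *C1s* by 0.56 (SE 0.21, adjusted p = 0.474). Under 4 of the alternatives 1 gene of these lists was called.

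The hepatoblast markers with a tested probe were all above 0, as were 59.5% of all tested genes. Of 14 markers 12 were tested and 4 were called, all higher, namely albumin (*Alb*, 1.22, SE 0.21, adjusted p = 0.0494), transthyretin (*Ttr*, 0.91, SE 0.14, adjusted p = 0.0319), *Ambp* (0.67, SE 0.11, adjusted p = 0.0407) and *Aadac* (1.89, SE 0.22, adjusted p = 0.0161). *Ahsg*, the fetuin A gene, was second in size at 1.61 (SE 0.29, adjusted p = 0.0573), and the median was 0.77. Alpha-fetoprotein (*Afp*), singled out after its value was seen, differed by 0.17 (SE 0.16) with overlap. *Apoa4* was not above background on any array. The mean level of the list, relative to the wild types, was 0.55, 1.04, 0.99 and 0.96 in mutant pools 1 to 4 and -0.12, -0.06 and 0.18 in the wild types, with pool 1 the lowest mutant and pool 2 the highest, as for the members. Of 15 tested liver transcription factors 1 was called, *Creb3l3* at 1.63 (SE 0.24, adjusted p = 0.0319), a factor of hepatocytes and gut, with *Hnf4a* at 0.84 (SE 0.20, adjusted p = 0.132) and a median of 0.57. *Nr1h4* was at background throughout. By list mean, the liver transcription factors had another order than the members, with mutant pool 4 the lowest (0.31) and pool 3 the highest (0.57). Visceral endoderm markers, given below, had mutant pool 4 the lowest (0.12) and pool 1 the highest (0.60). The part of these lists in the members' differences was not tested.

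**Figure D4:**
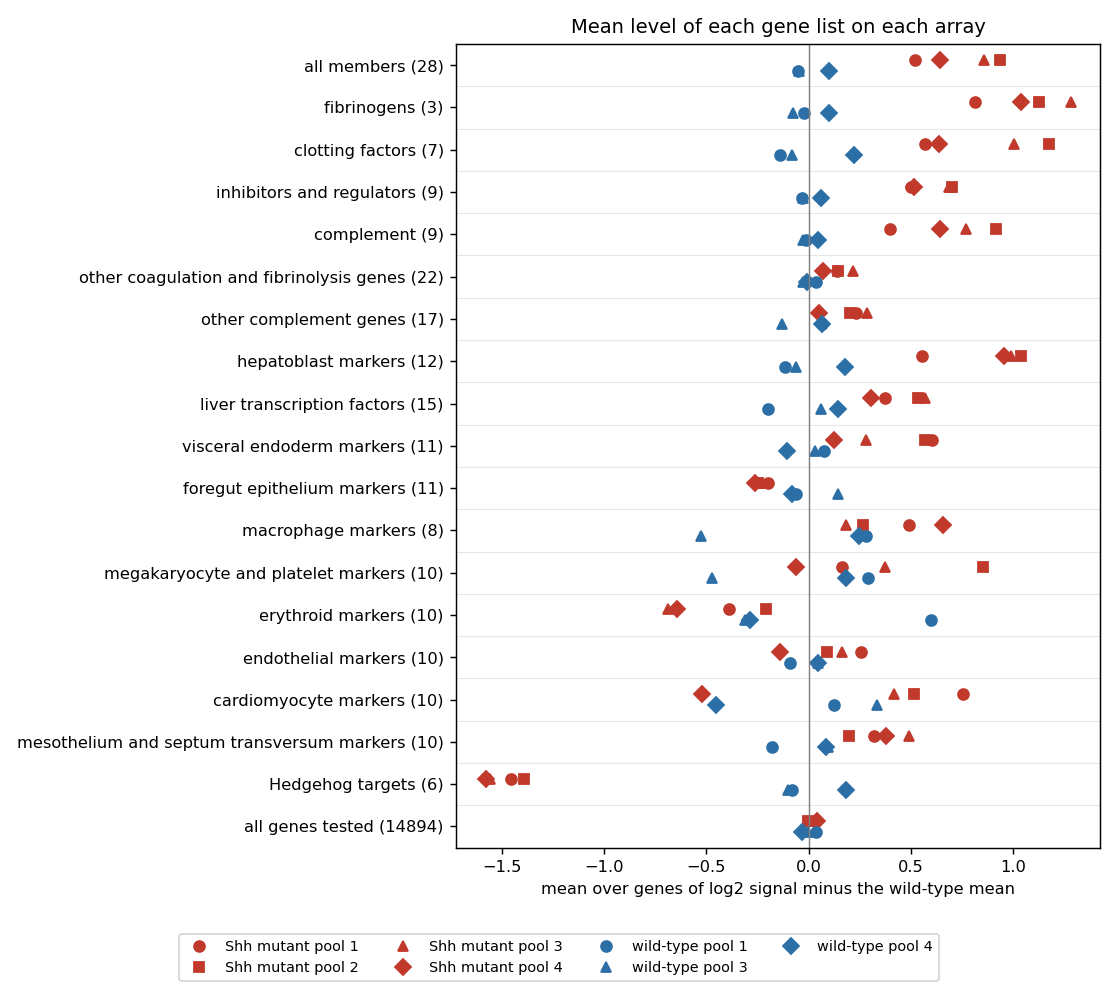
Mean over the tested genes of each list (number in brackets) of the log2 signal minus the wild-type mean, 1 symbol per array, red for mutant and blue for wild-type pools. Mutant symbols lie right of the wild-type symbols for the members (0.52 to 0.93), the hepatoblast markers (0.55 to 1.04) and the liver transcription factors (0.31 to 0.57), and near 0 for all tested genes. They also lie right for the other coagulation and fibrinolysis genes (0.07 to 0.22, wild types -0.03 to 0.04). The same holds for visceral endoderm and for mesothelium and septum transversum markers. For foregut epithelium markers, a list that holds *Shh* itself, and for Hedgehog targets they lie left.

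Of the markers of other tissues that the dissection could hold 0 were called by limma in each list, where 0.786% of all tested genes were called. At an unadjusted p under 0.05 were 5 of 11 foregut epithelium, 4 of 11 visceral endoderm, 4 of 10 mesothelium and septum transversum, 3 of 10 erythroid, 2 of 8 macrophage, 1 of 10 endothelial, 0 of 10 platelet and 0 of 10 cardiomyocyte genes, against 9.10% of all tested genes. The medians were 0.39 over 11 visceral endoderm markers (*Amn* 0.19, *Cubn* 0.13), -0.16 over 11 foregut epithelium markers (*Epcam* -0.12, *Cdh1* -0.20), 0.33 over 8 macrophage markers (*Csf1r* 0.01, *Ptprc* 0.30) and 0.36 over 10 megakaryocyte and platelet markers (*Pf4* 0.53, *Ppbp* 0.68). Over 10 genes each they were -0.39 for erythroid (*Hba-x* -0.38, *Hbb-bh1* -0.25), 0.05 for endothelial (*Pecam1* -0.06, *Cdh5* 0.05), 0.23 for cardiomyocyte (*Myh6* 0.26, *Myh7* 0.31) and 0.36 for mesothelium and septum transversum markers (*Wt1* 0.83, *Upk3b* 0.63). On single arrays the list means overlapped between genotypes for macrophage, platelet, erythroid, endothelial and cardiomyocyte markers. They did not overlap for visceral endoderm (0.12 to 0.60 in mutants, -0.11 to 0.07 in wild types), mesothelium and septum transversum (0.20 to 0.49, -0.18 to 0.10) and, lower in mutants, foregut epithelium (-0.26 to -0.20, -0.08 to 0.14). Their part in the members' differences was not tested.

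As a check of the genotype, *Shh* read 9.22 to 9.67 in the mutants and 9.98 to 10.74 in the wild types, a difference of -1.08 (SE 0.20, limma adjusted p = 0.0653). The exact two-sided permutation p was 0.0286, the smallest that 35 splits allow. The Hedgehog target *Gli1* differed by -1.02 (SE 0.19, adjusted p = 0.0674) and *Hhip* by -2.83 (SE 0.18, adjusted p = 0.00126). Of genes known from the second heart field, *Isl1*, *Tbx5* and *Osr1*, named here without a set rule, were among those tested. Their differences of -0.43, -0.31 and -0.88 did not pass the test (limma adjusted p = 0.319, 0.870 and 0.232). Whether the *Shh* probe lies outside the deleted part of the allele is not given in the sources used here.

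Calls among the members varied with the setting while their median did so less. Between 0 and 12 members were called over the 18 alternatives. The share of all tested genes called moved too, with 0.336% for scaling to the 75th percentile, 0.631% for quantile normalization, 0.786% without background correction, 0% on the authors' deposited values, 0.181% without the filter on dim probes, 0.491% with a filter blind to genotype, 0.698% with outlier spots kept and 0.974% with a variance trend. It was 0.0604% with slide as a fixed block, 1.08% as a random block, and without 1 array 0.819% (mutant pool 1), 0.215% (mutant pool 2), 0.0671% (mutant pool 3), 0.416% (mutant pool 4), 0.0806% (wild-type pool 1), 0.175% (wild-type pool 3) and 0.208% (wild-type pool 4). The median of the tested members was 0.75 to 0.93 in 17 of them and 0.25 on the authors' deposited values, where the median over all tested probes was -0.54. With the array medians of those values made equal, the median of the members was 0.86.

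**Figure D5:**
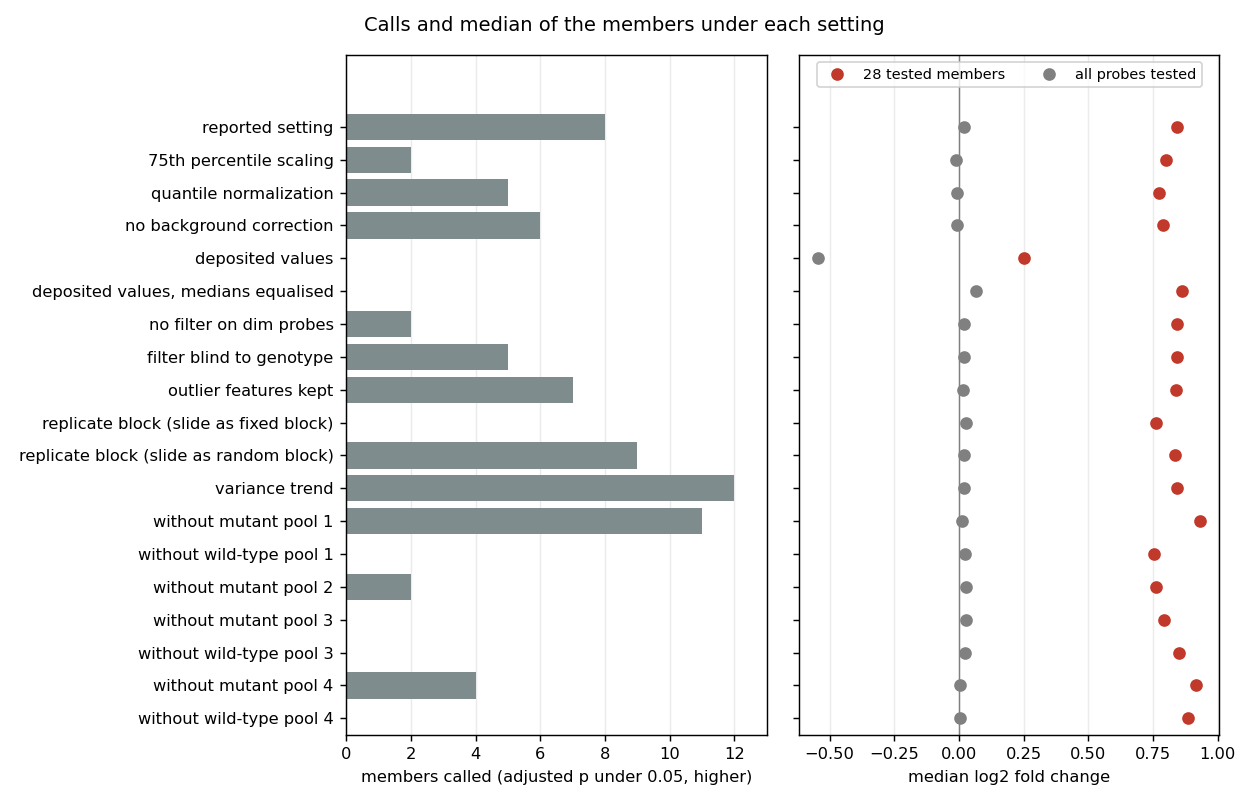
Left, the number of members called under each setting, with the reported setting on top. Right, the median log2 difference of the 28 tested members (red) and of all probes tested (grey). The calls range from 0 to 12, and the red points lie between 0.75 and 0.93 except on the deposited values, where both points are shifted to the left.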

How the data were processed

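Each pool was labelled with Cy3 and hybridized to 1 array. The authors deposited, per spot, mean signal and local background as intensity read by Agilent Feature Extraction 10.5.1.1 (per the submitters' processing notes), and a table of log2 values of 26255 probes, VSN-normalized per the study's methods, whose centring is not stated and whose array medians ran from 5.50 to 9.93. The strain and genotype entries of the labels are exchanged and were read by content.

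Here, outlier spots (155 to 206 of 43379 per array) were left out, and mean signals were corrected by normexp against 153 negative control spots (offset 50). They were then normalized by an own version of VSN (trimming share 0.9, 7 iterations, 5 strata), whose scale matches log2 well above background. The array medians were then 6.16 to 6.34. On an array 60.0% to 70.6% of probes were well above background, and the median SD between pools was 0.178. Precision is limited by the number of arrays. Genotypes were compared with limma 3.58.1 in R 4.3.3 (data.table, version 1.17.8) in place of the samr test of the study's methods, over gene-named probes that passed the background filter in 1 genotype or both. The p-values measure the spread between pools. The steps were tested on simulated data. Figures used matplotlib 3.10.9 and pandas 2.3.3 in Python 3.11.15.

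All 35 members matched the RefSeq gene table by symbol. Array values are given for members past the threshold and, per role, for the 3 with the largest difference among those well above background on all 7 arrays, and for *F11*, *F13b* and single arrays of others, chosen after their values were seen. Of the other cascade, hepatoblast and liver transcription factor lists, called genes and the 2 with the largest difference are named, and of the remaining lists the first 2 genes. Members and lists were chosen with earlier results of these data known. Alternatives were other scalings, backgrounds, filters, outlier rules and variance models, the authors' values, slide blocks and leaving out each array.

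The replicate number marks a shared slide per the labels. Deviations from the genotype means correlated at 0.0328 to 0.238 over the 3 pairs that shared a slide and at -0.220 to 0.187 over 9 other pairs.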

Additional observations from a re-analysis of the deposited data

Results flagged for a closer look

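Each of the 35 members was checked for a mutant array far from the other 3, and 1 was found, where chance gives about 1 in 20. It was *C9*, a pore protein of the membrane attack complex, in mutant pool 3, with a normalized log2 signal of 3.19 against 3.28 to 3.29 in the others. The probe was not well above background on any array.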

How the results depend on the processing

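Against 8 members called, 2 were called with scaling to the 75th percentile, 5 with quantile normalization, 6 without background correction, 2 without the filter on dim probes, 5 with a filter blind to genotype, 7 with outlier spots kept and 12 with a variance trend. On the authors' deposited values 0 were called, and 0 with each array set to the same median, an alternative chosen after seeing the data. With slide as a replicate block, the paired analysis called 0 as a fixed block (6 arrays, 0.0604% of genes called) and 9 as a random block (consensus correlation 0.10). Leaving out 1 array gave 0 to 11 calls, with 0 without wild-type pool 1, 3 or 4 or mutant pool 3, 2 without mutant pool 2, 4 without mutant pool 4 and 11 without mutant pool 1. The cause was not tested. The median of 0.84 was 0.75 to 0.93 with 1 array left out and 0.25 on the authors' deposited values. *Shh* passed the threshold with the random block and with the variance trend (-1.08 in both) and without wild-type pool 4 (-1.33, range -1.33 to -0.95 over the arrays left out). Of the other coagulation and complement genes 1 in place of 0 was called with quantile normalization, without background correction and without mutant pool 1 or 4 (0 to 1 over the arrays left out).

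Apart from the deposited values, signs turned only in *F9*, *Hrg*, *Pros1*, *Mbl2* and *Masp2*. *F9* became 0.015 with scaling to the 75th percentile, 0.092 on the deposited values set to the same median and -0.20 to 0.081 with 1 array left out. *Hrg* became 0.076 with that scaling, 0.036 with quantile normalization, 0.080 without background correction, 0.45 on the deposited values set to the same median and -0.070 to 0.034 with 1 array left out. *Pros1* became 0.0016 with the fixed replicate block and -0.054 to 0.031 with 1 array left out, and *Mbl2* -0.034 with that block and -0.034 to 0.28 with 1 array left out. *Masp2* lay at -0.20 to 0.0037 with 1 array left out. On the deposited values, where the median over all probes was -0.54, *Serping1* became -0.40, *C8g* -0.44, *Masp1* -0.28 and *Mbl2* -0.32, and with each array set to the same median they were 0.21, 0.17, 0.33 and 0.29. Signal over background was too low in *C8b* and *C9* for a level on all 7 arrays.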
